A study of Homo sapiens with 19 samples.

Results

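Untreated human liver organoids from an orbital shaker were set against untreated organoids from ultra-low attachment plates, both profiled by single-cell RNA sequencing. The libraries were chosen by their sample titles, without use of any measured value. They were 2 shaker libraries (OS, day 25) and 3 plate libraries (ULA, day 21), together 5 of the 19 libraries of the series and 32739 of its 120240 kept cells. The 2 ULA libraries of day 34 served as a second reference, since they had the same longer dissociation as the shaker organoids.

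All of these organoids were made from W01, an established human pluripotent stem cell line distributed by WiCell, with a wild-type genotype and no treatment. A single line was used, so the comparison does not extend to other genetic backgrounds. Cells were captured with the 10x Genomics 3′ version 3 chemistry. The OS and day 21 ULA organoids differed in culture format and age, and also in dissociation. Trypsin was applied for 10 minutes to day 21 ULA organoids. The OS organoids and the day 34 ULA organoids received 1 more wash and another 10 minutes of trypsin. The gene list used for counting differed as well, with a longer list in the ULA files, and so did the Cell Ranger release named in the file headers. Format, age, dissociation, gene list and release therefore cannot be told apart in the comparison with day 21, and large differences are given most room. The labels do not say whether replicates came from separate cultures, so p-values measure only the spread between these libraries.

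Liver organoids of this kind are grown from foregut endoderm and can hold hepatocyte-like epithelium beside ductal, gut-like and mesenchymal cells. Fetal-type hepatocytes secrete alpha-fetoprotein, and mature hepatocytes shift to albumin, apolipoproteins and clotting factors. Mesenchymal cells of the liver, the hepatic stellate cells among them, deposit fibrillar collagens and take on contractile genes when they become myofibroblasts. Motion of the medium can act on cells through shear, and stiffness or stretch through the YAP and TEAD factors.

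The shaker libraries were shallower and less alike than the plate libraries. Median depth was 4250 and 2288 unique molecular identifiers (UMIs, counts of distinct captured transcripts) per kept cell in OS replicates 1 and 2, against 10080 to 11630 in day 21 ULA libraries. The 2 OS libraries kept 9479 and 5724 cells and the 3 ULA libraries 5335 to 6299, with between 29625946 and 85950527 UMIs on shared genes per library. Mitochondrial transcripts made up a median of 5.05% and 9.09% of UMIs per cell in OS and 6.85% to 11.1% in ULA. Pearson's correlation of log levels across genes was 0.987 to 0.993 between ULA day 21 libraries, 0.972 between the OS libraries and 0.878 to 0.904 between formats. Genes are not independent replicates, so these values are descriptions. Any pair of the 7 libraries shared 7 to 40 cell barcodes. When cells of both formats were clustered together, 15 of 16 clusters drew over 95% of their cells from a single format, and 99.3% of cells lay with the majority format of their cluster. Without the genes that differed between formats, 95.7% still did.

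**Figure D1:**
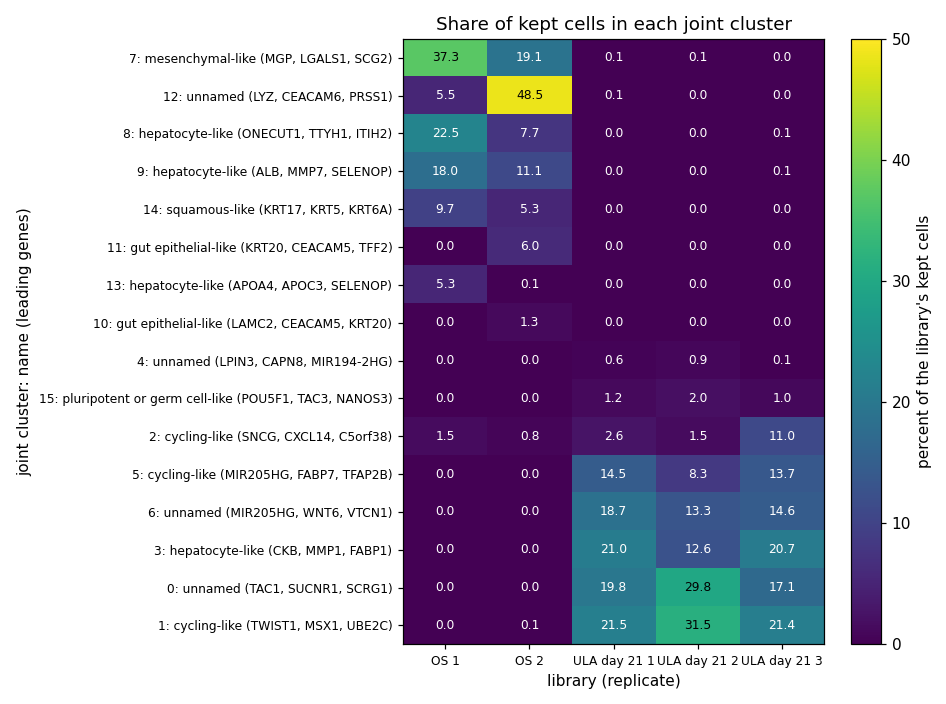
Share of each library's kept cells (colour and printed percent) in each of the 16 joint clusters (rows, with names from fixed markers where the rule gave one, and leading genes) for the 2 OS and 3 day 21 ULA libraries (columns). In 15 of the 16 clusters over 95% of cells come from 1 format, and cluster 12 holds 5.45% of OS replicate 1 and 48.5% of replicate 2.

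The OS libraries differed most in 1 unnamed cluster led by LYZ, CEACAM6 and PRSS1, which held 5.45% of cells in replicate 1 and 48.5% in replicate 2. The mesenchymal-like cluster, led by MGP and collagen genes, held 37.3% and 19.1%. For this reason results that rest on 1 OS library are named as such below. Shares of joint clusters are given as values, because the clusters were built on genes that differ between the formats. A cluster with pluripotent or germ cell markers (POU5F1, NANOS3) took 1.02% to 1.99% of each ULA day 21 library and 0 cells of either OS library. A count of 0 of 9479 and of 5724 cells allows shares of up to 0.0317% and 0.0524% (3 cells), for counting error only.

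In the whole-library comparison, shaker organoids had more transcripts of hepatocyte secreted proteins, of type I collagen and smooth muscle actin, and of CXC chemokines. They had fewer transcripts of S phase and mitosis genes, of several glycolytic and sterol synthesis genes, and of the stress response genes CHAC1 and PSAT1. Raw UMIs were summed over the kept cells of each library, and edgeR's quasi-likelihood test was run over 19411 genes with Benjamini-Hochberg adjustment. An adjusted p under 0.05 was called for 9090 genes (46.8%), 4828 higher in OS (24.9%) and 4262 lower (22.0%). A call with an absolute log2 fold change of at least 2 is named large, and there were 2363 of these (12.2%), 1529 higher (7.88%) and 834 lower (4.3%). The values of the 2 groups did not overlap for 12862 genes (66.3%). In such sums, more cells of a type and more RNA per cell of that type cannot be told apart.

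Part of the largest differences went with the gene list and Cell Ranger release used for counting. Of the 12 genes with the highest fold change under the naming rule, 10 had an overlapping gene on the same strand, and of the 12 lowest 4 did. Such an overlap was found for 34.4% of all genes tested, 34.8% of called genes and 39.3% of large higher calls. Of the 10, 8 also jumped at least 4-fold between OS libraries counted on the gene list of the untreated ones and OS libraries counted on a shorter list. Over all genes tested 0.39% stepped up in this way. EEF1G, a translation elongation factor subunit found in every cell, stood at 720 and 685 CPM (UMIs of a gene scaled to a common total per library) in OS and 1.51 to 1.94 in day 21 ULA. The mean of EEF1G was 934 in the OA control OS libraries, which share the gene list of the untreated ones, and 8.32 and 6.53 in the TGFB1 and PA control OS libraries, which do not. The OS libraries on the shorter list were also counted with an earlier Cell Ranger release and came from other experiments. List, release and experiment cannot be told apart in this step. ATP6V0C, SERPINA3, TUBB3, MRPS24, NME2, RNASEK and TXNDC5 showed the same step, and FKBP2 showed it in the other direction. A screen added after the data were seen therefore set aside genes with a same-strand overlap, with such a step, in the pseudoautosomal regions or not on the shorter list. The screen left 12408 genes, of which 5782 were called (46.6%), with 873 large higher and 585 large lower. Of the 76 genes that stepped up with the list and release of the untreated libraries, 70 were large and higher in OS. The step rule used the same untreated OS libraries, so this count is in part built in.

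**Figure D2:**
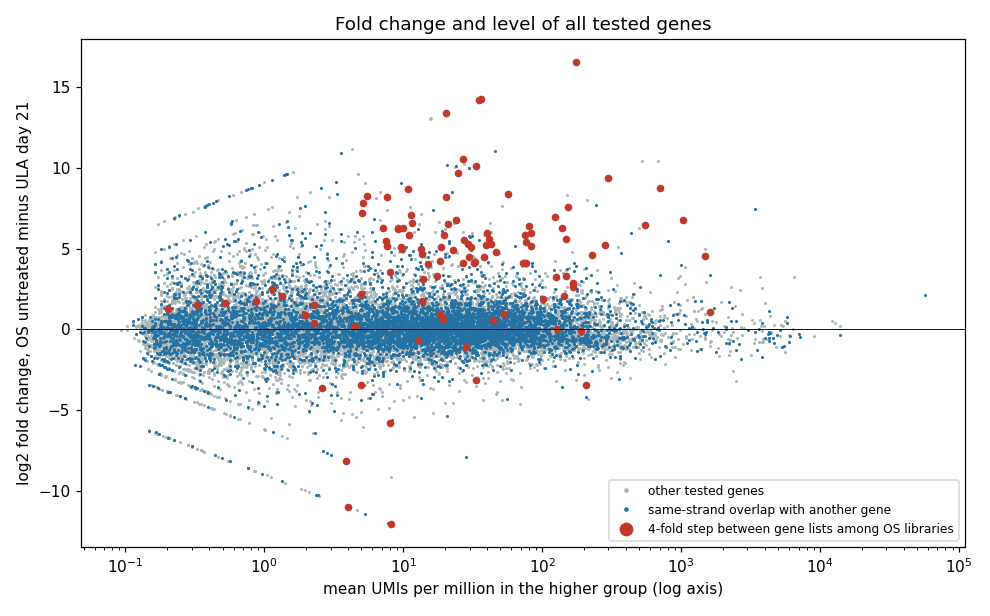
Log2 fold change of OS untreated over ULA day 21 (y axis) against the mean level in the higher group (x axis, CPM, log scale) for each tested gene. Red points are genes with a 4-fold step between gene lists among OS libraries and blue points have a same-strand overlapping gene. Of the 76 that step up, 70 lie among the large higher calls. That count is in part set by the rule, which used the same untreated OS libraries. Most other genes scatter around 0.

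The liver check genes were higher on the shaker. ALB, albumin, was at 35.9 and 20.1 CPM in OS replicates 1 and 2 and at 4.27, 4.87 and 5.46 in ULA day 21 replicates 1 to 3. The 2 groups did not overlap, and the log2 ratio was 2.60 (SE 0.247, adjusted p = 6.14e-05, edgeR). AFP, the fetal counterpart of albumin, was at 2353 and 2220 in OS and at 380, 328 and 471 in ULA, a log2 ratio of 2.63 (SE 0.229, adjusted p = 3.69e-05, edgeR). The OS libraries were close to each other for AFP and lay well above every ULA library. HNF4A, a master regulator of hepatocyte identity that is also active in gut and has a same-strand overlapping gene, was at 23.5 and 90.7 in OS and 13.9 to 18.0 in ULA. Its log2 fold change of 2.02 (edgeR adjusted p = 0.00608) fell to 0.63 without OS replicate 2, with an adjusted p of 0.0233 from edgeR. EPCAM, a general epithelial surface protein, did not pass in edgeR (0.54, adjusted p = 0.0595). It passed with DESeq2 (adjusted p = 0.0266), and in edgeR without OS replicate 1 (0.66, adjusted p = 0.0373) or with a stricter cell filter (0.86, adjusted p = 0.0149). CYP3A4, CYP2E1, CYP1A2, CYP7A1, TAT and ARG1, which mark mature hepatocytes, were below the low-count filter. AHSG, a hepatocyte secreted protein, was below it too.

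**Figure D3:**
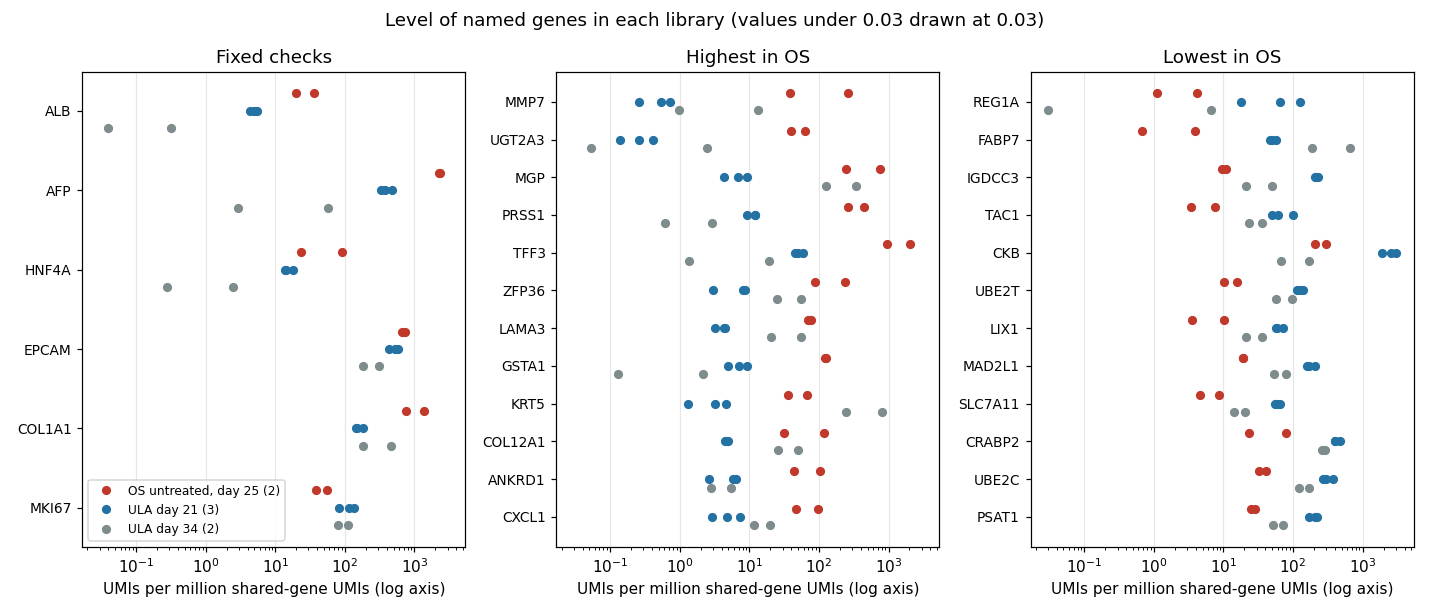
Level in each library (x axis, CPM on shared genes, log scale) of the fixed check genes and of the 12 highest and 12 lowest genes after the screen for gene list differences, with 1 point per library for OS untreated (red, 2), ULA day 21 (blue, 3) and ULA day 34 (grey, 2). Genes of the middle and right panels were picked for having no overlap between red and blue points, while grey points often fall elsewhere.

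Most hepatocyte secreted protein genes tested were called higher. Of 20 listed, 19 were tested, 12 were higher, 0 were lower and 7 were not called, with a median log2 fold change of 1.70 against 0.00 over all genes. SERPINA1, alpha-1 antitrypsin, stood at 6663 and 6234 CPM in OS and 850, 650 and 647 in ULA, and rose by 3.27 in log2 (SE 0.231, edgeR adjusted p = 1.1e-05). TTR, the thyroxine carrier transthyretin, stood at 1033 and 877 against 115, 96.5 and 127 (3.17, edgeR adjusted p = 7.22e-06). APOC3, an apolipoprotein of triglyceride-rich particles, was at 65.8 in both OS libraries and at 8.81, 6.44 and 6.95 in ULA (3.25, edgeR adjusted p = 4.28e-06). Each of these genes separated the formats without overlap, as did 66.3% of all genes tested. FGB, the fibrinogen beta chain, rose less, by 1.74, from 95.4 to 144 in ULA to 386 and 364 in OS. APOA1, the main protein of high-density lipoprotein, did not follow: it stood at 627 and 471 in OS and at 712, 800 and 724 in ULA (−0.36, edgeR adjusted p = 0.168). The summed level of 17 hepatocyte markers was 11960 to 12250 in OS and 2695 to 3124 in ULA day 21. Most of the OS sum came from SERPINA1, TTR and AFP, the last at 2353 and 2220 in OS, so it says little about the other markers.

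Metabolic enzyme and transporter genes of the hepatocyte were mixed. Of 28 listed genes 18 were tested, and 10 were higher and 2 lower, with a median of 1.26 that spread from 0.74 without OS replicate 2 to 1.75 without OS replicate 1. ADH1B, an alcohol dehydrogenase of adult liver, was low in both formats, at 3.95 and 3.38 in OS and 0.112 to 0.198 in ULA, and rose by 4.55 (SE 0.333, edgeR adjusted p = 1.34e-05). CYP3A5, a drug-metabolising cytochrome, was at 14.9 and 21.4 against 5.48 to 6.58 (1.68, edgeR adjusted p = 0.000531). UGT2B7, a glucuronidating enzyme, rose by 3.02, though another gene overlaps it on the same strand. ASS1, the urea cycle enzyme that makes argininosuccinate, fell: it was at 14.4 and 15.3 in OS and 38.9 to 49.2 in ULA (−1.43, SE 0.191, edgeR adjusted p = 0.000415). OTC and CPS1, urea cycle enzymes of the mitochondrion, were called higher (2.12 and 0.88; both have same-strand overlaps), while ASS1 was lower. The CPS1 call was lost without ULA replicate 1 (0.78, edgeR adjusted p = 0.0712), and OTC was at 1.32 without OS replicate 2.

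Of 24 liver and foregut transcription factors, 14 were higher and 3 lower, with a median of 1.10. ONECUT1, a factor of the hepatoblast and bile duct, rose from 2.43 to 3.88 in ULA to 36.3 and 17.9 in OS (3.09, SE 0.305, edgeR adjusted p = 7.74e-05). NR5A2, a nuclear receptor of bile acid and lipid genes, rose by 2.06, and PROX1, a hepatoblast factor, by 1.36, at 53.8 and 52.1 against 19.1 to 23.6. SOX17, an early endoderm and germ cell factor, had the strongest fall of the list, from 5.54 to 7.88 in ULA to 0.389 and 0.371 in OS (−4.12, SE 0.324, edgeR adjusted p = 2.08e-05). FOXA2, a pioneer factor of the endoderm, showed no call (0.02, edgeR adjusted p = 0.971). The count of higher factors rested in part on 1 library, with 9 of 24 higher and a median of 0.51 without OS replicate 2. The marker list for pluripotent and germ cells moved the same way as SOX17, with a summed level of 12.9 to 15 in OS and 67.7 to 108 in ULA; its part in the SOX17 value was not tested.

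Gut epithelial genes were also higher, 14 of 20 tested with 1 lower and a median of 1.28. TFF3, a trefoil peptide of mucous cells, was at 942 and 2042 CPM in OS and 44.8, 49.6 and 59.1 in ULA (4.98, SE 0.363, edgeR adjusted p = 1.31e-05). PHGR1, a small gut epithelial protein, was at 601 and 1358 against 119, 87.1 and 115 (3.31, edgeR adjusted p = 0.000112). OLFM4, a marker of gut crypts, was at 21.1 and 30.1 against 1.03 to 2.69 (3.96, edgeR adjusted p = 6.14e-05). OS replicate 2, the library with the large LYZ and CEACAM6 cluster, was the higher of the 2 for each of these. KRT20, a keratin of differentiated gut cells, stood at 14.8 and 131 in OS against 2.79 to 15.1, and its log2 fold change of 3.10 was 0.69 without OS replicate 2 (edgeR adjusted p = 0.319). CDX2, the intestinal master factor, kept its call without that library, at 0.70 instead of 1.31 (edgeR adjusted p = 0.0184). Without OS replicate 2, 9 of 20 gut genes were higher and 3 lower, with a list median of 0.42. FABP1, the liver and gut fatty acid binding protein, had 380 in OS replicate 1 and 1546 in replicate 2 beside 1184 to 1481 in ULA, and was not called.

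Ductal genes moved little. Among 15 tested members 5 were higher and 0 lower, near the background of 24.9% higher, with a median of 0.54. KRT19, a keratin of bile ducts, was at 1322 and 1029 in OS and 901 to 1100 in ULA (0.35, edgeR adjusted p = 0.181). CLDN4, a tight junction protein, rose by 1.18 (edgeR adjusted p = 0.0115), from 94.0 to 221 in ULA to 319 and 346 in OS. Squamous markers, which liver tissue lacks, had a summed level of 94.4 to 225 in OS and 24.3 to 43.0 in ULA, with 7 of 9 tested members higher and 1 lower. The lower one was TP63, the basal squamous factor, at 1.04 and 0.675 in OS and 5.89 to 7 in ULA (−2.84, edgeR adjusted p = 9.6e-05). KRT5, the basal keratin among them, was at 68.2 and 36.0 in OS and 1.33 to 4.57 in ULA (4.18, SE 0.437, edgeR adjusted p = 0.000107).

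Extracellular matrix genes were higher on the shaker in 15 of 23 members tested and lower in 2, with a median of 1.07. Without OS replicate 1 the list had 11 higher, 3 lower and a median of 0.67, and without OS replicate 2 it had 17 higher, 1 lower and a median of 1.38. COL1A1, the main chain of type I collagen, stood at 1381 and 764 CPM in OS and at 145, 182 and 150 in ULA (2.83, SE 0.251, edgeR adjusted p = 4.12e-05). FN1, fibronectin, stood at 3846 and 1492 against 483, 616 and 443 (2.44, SE 0.338, edgeR adjusted p = 0.000488). COL6A3, a chain of the beaded type VI collagen, was at 400 and 269 against 55.5 to 86.5 (2.37, edgeR adjusted p = 8.59e-05). OS replicate 1, with the larger mesenchymal-like cluster, was the higher library for all of them. FBLN1, a basement membrane and elastic fibre protein, went the other way, at 155 and 138 in OS and 294 to 362 in ULA (−1.08, SE 0.187, edgeR adjusted p = 0.00155). LUM, the small proteoglycan lumican, was called lower by 1.05 in all libraries, a call that was lost when OS replicate 2 or any of the 3 ULA libraries was left out (−1.14 to −0.54, edgeR adjusted p = 0.0628 to 0.104). Without OS replicate 1 the value was −1.86 (edgeR adjusted p = 0.000198).

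Contractile genes were higher in 8 of 15 members and lower in 1, with a median of 0.99 that spread from 0.33 without OS replicate 1 to 1.67 without replicate 2. ACTA2, smooth muscle actin, stood at 271 and 67.4 in OS and 11.3, 9.35 and 10.4 in ULA (4.08, SE 0.443, edgeR adjusted p = 0.000131), though another gene overlaps it on the same strand. MYLK, the kinase that starts smooth muscle contraction, was at 24.6 and 10.1 against 2.97 to 4.29 (2.31, edgeR adjusted p = 0.000559). TAGLN, an actin-binding protein of smooth muscle, was at 608 in OS replicate 1 and 123 in replicate 2, beside 86.9 to 124 in ULA. Its call (1.79, edgeR adjusted p = 0.0139) was lost without OS replicate 1 (0.32, edgeR adjusted p = 0.289), and also without ULA replicate 2 (1.64, edgeR adjusted p = 0.0559) or 3 (1.86, edgeR adjusted p = 0.0523). SYNPO2, an actin-bundling protein of muscle, fell by 2.53 (edgeR adjusted p = 5.04e-05), from 41.3 to 49.7 in ULA to 8.81 and 5.64 in OS. The 15 mesenchymal markers had a summed level of 3481 to 7559 in OS and 2275 to 2863 in ULA; their part in these counts was not tested in the whole-library sums.

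All 20 S phase and mitosis genes fell, against a background of 22.0% lower, with a median of −1.58. The list and the measured fall were known from earlier results of these data. UBE2C, which feeds mitotic cyclins to the proteasome, was at 32.9 and 40.9 in OS and at 300, 371 and 265 in ULA (−2.98, SE 0.246, edgeR adjusted p = 2.78e-05). AURKB, a kinase of chromosome segregation, was at 8.11 and 10.1 against 49.8 to 56.8 (−2.43, edgeR adjusted p = 3.58e-05). TYMS, which makes thymidylate for DNA synthesis, was at 42.3 and 43.1 against 196 to 201 (−2.13, edgeR adjusted p = 3.6e-05). MKI67, the antigen Ki-67, fell by 1.16 (edgeR adjusted p = 0.00792), with 38.5 and 55.1 in OS and 83.4 to 137 in ULA. The OS and ULA libraries did not overlap for any of the 20 genes, while 66.3% of all genes tested also had no overlap. Leaving out either OS library kept 18 or 20 of the 20 lower.

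Inflammatory genes had the highest list median, 2.70, with 20 of 22 tested members higher, 16 of them large, and 0 lower. Many of these are targets of NF-kB, a factor held in the cytoplasm by its inhibitor NFKBIA until a cytokine, damage or stretch releases it. The genes CXCL1, CXCL2, CXCL3, CXCL5, CXCL6 and CXCL8 encode secreted chemokines that draw neutrophils, and they lie close together on chromosome 4. Their promoters are shown because all 6 genes were called higher and each carries the same short motif. The 120 bases before each transcription start are given 5′ to 3′ on the gene's strand, from RefSeq (GRCh38.p14), with the motif GGAATTTCC (an NF-kB motif; GGAAATTCC on the other strand was searched too) in capitals. The windows are chr4:73869273-73869392 (CXCL1, plus strand), chr4:74099196-74099315 (CXCL2, minus), chr4:74038690-74038809 (CXCL3, minus), chr4:73998678-73998797 (CXCL5, minus), chr4:73836558-73836677 (CXCL6, plus) and chr4:73740449-73740568 (CXCL8, plus).
CXCL1: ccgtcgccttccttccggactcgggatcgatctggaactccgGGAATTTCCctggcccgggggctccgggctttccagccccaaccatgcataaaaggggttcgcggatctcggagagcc
CXCL2: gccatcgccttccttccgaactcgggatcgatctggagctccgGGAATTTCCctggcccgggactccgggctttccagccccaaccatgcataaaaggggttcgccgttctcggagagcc
CXCL3: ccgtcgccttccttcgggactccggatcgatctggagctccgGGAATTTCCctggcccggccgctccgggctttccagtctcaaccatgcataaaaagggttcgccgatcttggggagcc
CXCL5: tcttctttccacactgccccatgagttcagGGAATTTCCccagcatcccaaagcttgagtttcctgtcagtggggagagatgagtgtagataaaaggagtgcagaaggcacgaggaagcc
CXCL6: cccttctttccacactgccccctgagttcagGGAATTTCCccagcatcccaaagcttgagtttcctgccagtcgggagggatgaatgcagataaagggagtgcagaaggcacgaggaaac
CXCL8: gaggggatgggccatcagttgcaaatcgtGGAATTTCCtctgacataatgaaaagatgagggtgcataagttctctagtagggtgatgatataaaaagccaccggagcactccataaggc
The motif occurs in 63 of 27305 RefSeq promoter windows of this length (0.231%) and in 7 of the 20 list members with a RefSeq promoter, the 6 above and NFKBIA. CXCL1, CXCL2 and CXCL3 are near copies of each other, as are CXCL5 and CXCL6, so these promoters are not independent. A match describes the sequence and does not show that a factor binds it.

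CXCL8, interleukin 8, stood at 52.5 and 33.3 CPM in OS and at 0.745, 0.352 and 0.924 in ULA day 21 (6.05, SE 0.361, edgeR adjusted p = 4.52e-06). CXCL1 stood at 96.4 and 47.5 against 7.40, 2.86 and 4.71 (3.92, SE 0.385, edgeR adjusted p = 7.37e-05). CXCL2 stood at 72.9 and 56.8 against 9.49, 3.46 and 7.69 (3.32, edgeR adjusted p = 0.000114). ULA replicate 2 was the lowest library for all 3, and every OS library was above every ULA library. CXCL3 was at 64.5 and 57.3 against 4.91 to 11 (2.86), CXCL5 at 26.6 and 15.5 against 4.09 to 5.49 (2.16), and CXCL6, which has a same-strand overlapping gene, at 20.4 and 6.04 against 0.597 to 0.907 (4.19). CCL20, which draws lymphocytes and dendritic cells, was at 78.0 and 216 against 10.4 to 14.2 (3.65, edgeR adjusted p = 0.000133). The feedback inhibitors NFKBIA and TNFAIP3 rose by 1.46 and 2.32, TNFAIP3 from 5.71 to 5.89 in ULA to 29.1 and 25.5 in OS. CRP and LCN2, acute-phase genes of the liver, were called higher from very low levels, CRP at 0.301 and 0.304 against 0 to 0.0306. ICAM1, a leukocyte adhesion protein, and CCL2, a monocyte chemokine, were not called (0.09 and 0.22). Immune cell markers had a summed level of 261 to 613 in OS and 107 to 183 in ULA, of which LYZ, which also led the unnamed cluster with CEACAM6, gave 232 and 572 in OS. Of 7 tested, 4 were higher and 2 lower, the lower ones being TYROBP and FCER1G (−1.20, edgeR adjusted p = 0.019). Their part in the chemokine values was not tested. Near-identical SAA1 and SAA2 share reads, so their separate values are uncertain.

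Immediate early genes, which cells switch on within minutes of serum, stress or tissue handling, were higher in 12 of 18 members and lower in 0, with a median of 1.69. FOS stood at 1657 and 1357 in OS and at 276, 67.5 and 280 in ULA (2.94, SE 0.495, edgeR adjusted p = 0.00137). JUN, its AP-1 partner, stood at 547 and 648 against 156, 81.2 and 150 (2.31, edgeR adjusted p = 0.000285). ZFP36, which degrades cytokine mRNA, was at 87.9 and 238 against 2.95 to 8.59 (4.76, SE 0.531, edgeR adjusted p = 0.000151). ULA replicate 2 was again lowest for each gene. The day 34 ULA libraries held FOS at 1189 and 518 and JUN at 698 and 527. They shared the longer trypsin step with the OS organoids and were older than both other groups, and the part of trypsin time or age in these values was not tested.

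Genes known to respond to shear or to YAP were higher in 10 of 17 members and lower in 2, with a median of 1.11. KLF2, a shear-induced transcription factor of endothelium, stood at 61.0 and 36.1 in OS and at 2.05, 0.964 and 2.66 in ULA (4.75, SE 0.384, edgeR adjusted p = 2.42e-05). ANKRD1, a nuclear cofactor and YAP target, was at 104 and 44.3 against 2.62 to 6.51 (3.96, SE 0.415, edgeR adjusted p = 0.00011). CCN2, connective tissue growth factor and also a YAP target, was at 276 and 120 against 39.4, 15.3 and 27.2 (2.93, SE 0.397, edgeR adjusted p = 0.000439). F3, tissue factor, which starts clotting, was at 51.9 and 36.1 against 4.36 to 5.50 (3.27, SE 0.208, edgeR adjusted p = 6.34e-06). None of the 4 overlapped between formats, as was so for 66.3% of all genes tested. The 2 lower members were NOS3 (−1.34, edgeR adjusted p = 0.0221) and AXL (−0.73, edgeR adjusted p = 0.0252). Each of these calls was lost without ULA replicate 1 or 2. The factors and regulators AMOTL2, AJUBA and TEAD1 were not called (−0.34 to −0.10). Endothelial markers had a summed level of 66.2 to 74.7 in OS and 38.7 to 54.7 in ULA, of which EGFL7 gave 58.8 and 57.5 in OS; 5 of 9 tested were higher, and 1, CLDN5, was lower with 0 UMIs in both OS libraries. The promoter of CCN2 is shown because it was the list member with the TEAD motif GGAATG, searched on both strands. It covers chr6:131951373-131951492 on the minus strand of GRCh38.p14 (RefSeq), with its 2 matches in capitals.
CCN2: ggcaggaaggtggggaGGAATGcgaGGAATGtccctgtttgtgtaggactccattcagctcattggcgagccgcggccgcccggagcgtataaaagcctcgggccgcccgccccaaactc
The motif was in 1539 of 27305 promoter windows (5.636%) and in 1 of 14 matched list members.

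Of 20 members of the unfolded protein and integrated stress response list, 7 were higher, 12 lower and 1 not called, with a median of −0.88. Among the higher members, HSPA5 (BiP), a chaperone of the endoplasmic reticulum, was at 1217 and 757 in OS and 436 to 466 in ULA (1.21, edgeR adjusted p = 0.00194), and PDIA4, a disulfide isomerase, was at 396 and 368 against 110 to 134 (1.77, edgeR adjusted p = 0.000111). Among the lower members, CHAC1, which breaks down glutathione, was at 2.04 and 1.62 in OS and at 25.9, 22.7 and 15.4 in ULA (−3.44, SE 0.281, edgeR adjusted p = 2.58e-05). PSAT1, an enzyme of serine synthesis, was at 28.3 and 24.7 against 170 to 222 (−2.82, SE 0.205, edgeR adjusted p = 1.3e-05). DDIT3 (CHOP) and TRIB3 fell by 2.16 and 2.09, and ATF4, the factor of amino acid shortage, by 0.88. ATF3 stood apart from them, at 306 and 188 in OS and 14.7 to 23.7 in ULA (3.67, SE 0.269, edgeR adjusted p = 1.35e-05); it is also an immediate early gene. Heat shock genes did not move as a group, with 2 of 14 higher and 2 lower. HSP90AA1 fell by 1.18 (616 and 519 against 1130 to 1661) and HSPB1 rose by 1.51 (488 and 389 against 146 to 181).

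Of 26 hypoxia and glycolysis genes, 13 were lower and 4 higher, with a median of −0.67 that ranged from −1.21 without OS replicate 2 to −0.44 without replicate 1. SLC2A3, a glucose transporter, was at 37.4 and 18.4 in OS and at 149, 172 and 158 in ULA (−2.44, SE 0.279, edgeR adjusted p = 0.000169). LDHA, which makes lactate from pyruvate, was at 224 and 191 against 599, 874 and 628 (−1.67, edgeR adjusted p = 0.000541). PGK1 and ENO1, glycolytic enzymes, fell by 1.10 and 1.27. ULA replicate 2 was the highest library for all 4. VEGFA, the vascular growth factor and a hypoxia target, rose instead, at 67.2 and 86.2 against 27.6 to 38.5 (1.32, SE 0.21, edgeR adjusted p = 0.00102), a call lost with all 19 libraries in 1 fit (1.29, edgeR adjusted p = 0.056). Another gene overlaps SLC2A3, LDHA, PGK1 and ENO1 on the same strand, and of the 11 members without such a gene 5 were lower and 2 higher.

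Sterol synthesis genes fell in 12 of 21 members and rose in 1. The counts rested on the OS libraries, with 9 lower and 5 higher without replicate 1 and 18 lower and 1 higher without replicate 2. FDPS, which makes farnesyl diphosphate, was at 139 and 134 in OS and at 543, 539 and 437 in ULA (−1.79, SE 0.2, edgeR adjusted p = 0.000151). MVD, the decarboxylase of the mevalonate branch, was at 18.7 and 30.2 against 61.3 to 97.0 (−1.67, edgeR adjusted p = 0.00168). The single higher member, CYP51A1, belongs to the genes with an overlap on the same strand, and it rose by 4.57, from 8.43 to 12.2 in ULA to 212 and 248 in OS. Among the 18 members that passed the screen 12 were lower and 0 higher. The regulators SREBF2 and INSIG1 were not called.

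Fatty acid oxidation genes were higher in 11 of 20 members and lower in 1, with a median of 0.65. CPT1A, which admits long-chain fatty acids to mitochondria, was at 14.5 and 17.7 in OS and 3.29 to 4.46 in ULA (2.11, SE 0.231, edgeR adjusted p = 0.000137). EHHADH, an enzyme of the peroxisome, rose by 1.30. The 1 lower member was FGF21, a hormone of fasting, with 0 UMIs in both OS libraries and 0.0918 to 0.244 CPM in ULA, too few for a fold, and its call was lost without OS replicate 1 (edgeR adjusted p = 0.0503). Fatty acid synthesis and lipid droplet genes did not move as 1 group: 6 of 20 were higher and 3 lower, with a median of −0.15. Without 1 library that median ranged from −0.31 to 0.10. DGAT2, which completes triglycerides, rose by 3.03 (12.9 and 26.3 against 2.10 to 2.91), while FADS1, a desaturase, fell by 1.40 (57.3 and 55.7 against 117 to 184). Both have a same-strand overlapping gene.

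The retinoid list had 4 higher and 7 lower members of 17, beside 24.9% higher and 22.0% lower over all genes. CRABP2, the retinoic acid carrier, fell from 404, 468 and 404 in ULA to 78.1 and 23.2 in OS (−3.01, SE 0.429, edgeR adjusted p = 0.000573). ALDH1A1, which makes retinoic acid, rose from 40.1 to 78.0 in ULA to 206 and 386 in OS (2.46, edgeR adjusted p = 0.000539). In the Wnt and hedgehog list 5 of 20 were higher and 5 lower, near the background shares; LGR5, a Wnt receptor cofactor of stem cells, rose by 2.54 (7.13 and 8.44 against 1.24 to 1.61). The metallothionein list also holds the zinc transporters SLC30A1 and SLC39A10. Of its 7 tested members 3 were higher: MT1E (1.84), MT2A (1.81) and SLC30A1 (1.23). The MT1E and MT2A calls were lost without ULA replicate 3 (edgeR adjusted p = 0.0598 and 0.0704). The list median was 0.70 and ranged from 0.51 to 1.06 without 1 library. Mitochondrially encoded genes had 3 of 13 higher, near the background of 24.9%, 1 of them MT-ATP8 (2.99), which overlaps MT-ATP6.

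**Figure D4:**
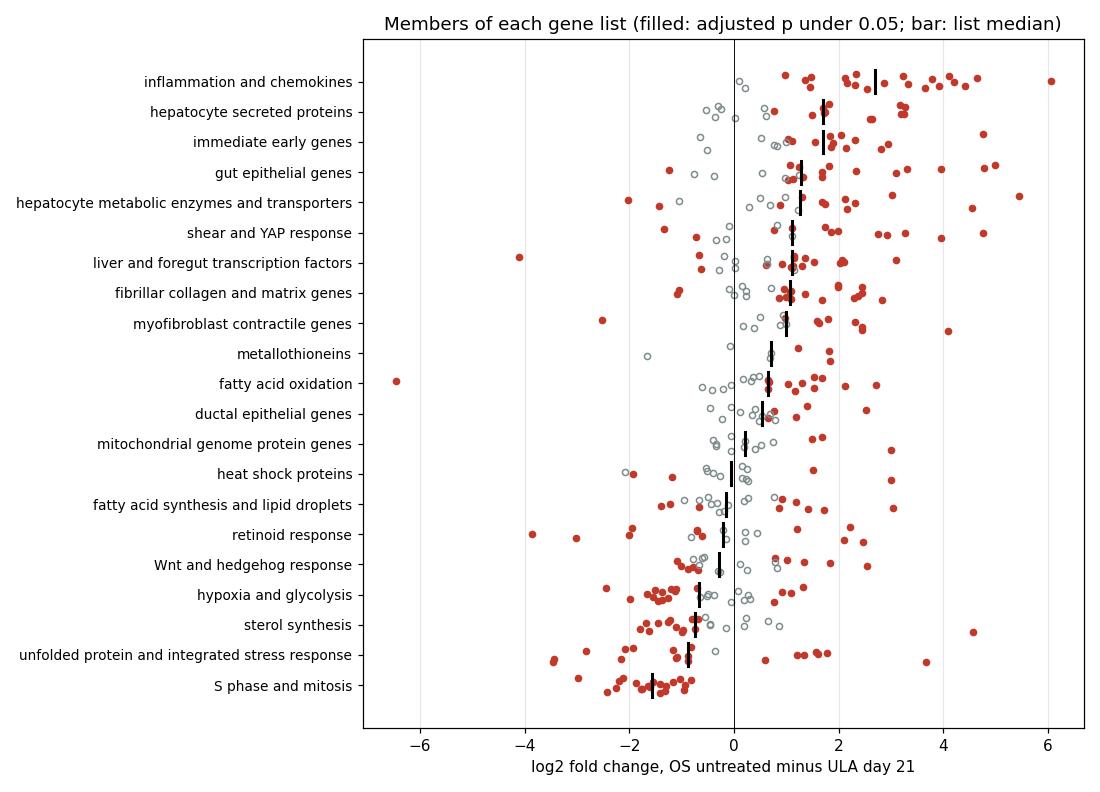
Log2 fold change of OS untreated over ULA day 21 (x axis) for each tested member of the 21 gene lists (rows, ordered by median); filled points have an edgeR adjusted p under 0.05 and black bars are list medians. The medians run from −1.58 for S phase and mitosis to 2.70 for inflammation, and several lists hold filled points on both sides of 0.

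The highest screened genes included MMP7, UGT2A3 and MGP. MMP7, a matrix protease of injured epithelium, stood at 266 and 38.7 in OS and at 0.256, 0.536 and 0.724 in ULA (8.28, SE 0.775, edgeR adjusted p = 5.81e-05). UGT2A3, a glucuronidating enzyme, stood at 62.4 and 39.8 against 0.138 to 0.412 (7.61, SE 0.369). MGP, the matrix Gla protein that blocks calcification, stood at 750 and 246 against 4.34 to 9.34 (6.25, SE 0.481). PRSS1, a trypsinogen, stood at 263 and 439 against 9.35 to 12.1 (5.08), and the near-identical PRSS2 at 2824 and 3941 against 17.1 to 26.0, so reads may be split between them. GSTA1, a glutathione transferase of liver, and LAMA3, a laminin chain of epithelial basement membrane, rose by 4.21 and 4.30. COL12A1, which bridges collagen fibrils, rose by 4.06 (118 and 31.2 against 4.53 to 4.88).

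The lowest screened genes included REG1A, FABP7 and IGDCC3. REG1A, a secreted lectin of pancreas and gut, was at 4.12 and 1.11 in OS and at 64.5, 18.1 and 124 in ULA (−4.61, SE 0.83, edgeR adjusted p = 0.00195). FABP7, a fatty acid binding protein of neural progenitors, was at 3.88 and 0.675 against 46.1 to 57.7 (−4.36, SE 0.528). IGDCC3, a receptor-like protein of the embryo, was at 10.8 and 9.52 against 206 to 225 (−4.32, SE 0.21, edgeR adjusted p = 1.34e-06). CKB, brain-type creatine kinase, fell by 3.20 (206 and 296 against 1896 to 3024), and TAC1, the precursor of substance P, by 3.58. SLC7A11, the cystine importer and an ATF4 target, fell by 3.08 (4.57 and 8.64 against 54.3 to 65.0). UBE2T and MAD2L1, genes of DNA repair and of the spindle checkpoint, were lower by 3.20 and 3.10.

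The day 34 ULA libraries offered a comparison with the same trypsin time, though they were older and still used the ULA gene list. It shares the 2 OS libraries with the first comparison, so values are set side by side only. Of 19325 genes tested, 3117 were called (16.1%), 2122 higher in OS (11%) and 995 lower (5.15%), with 2032 large (10.5%), 1452 of them higher (7.51%) and 580 lower (3.0%), and groups apart for 13089 (67.7%). The calls depended on both OS libraries: 477 were made without replicate 1 and 186 without replicate 2. The day 34 libraries also differed strongly from each other, with AFP at 2.94 and 57.6, and those of day 21 at 328 to 471.

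AFP, SERPINA1 and TFF3 were called higher in OS against either age of ULA organoids. AFP had a log2 fold change of 6.50 over day 34 (edgeR adjusted p = 0.0287) beside 2.63 over day 21, and SERPINA1 4.88 (edgeR adjusted p = 0.0261) beside 3.27. TFF3 had 7.49 (edgeR adjusted p = 0.0203) beside 4.98, with levels of 1.36 and 19 at day 34. Of 18 secreted protein genes tested in both, 9 were higher and 0 lower over day 34, and of 20 gut genes 17 were higher and 0 lower. Of 17 enzyme genes 9 were higher and 1 lower, and of 23 transcription factors 8 were higher and 0 lower. Of 22 inflammatory genes 7 were higher and 0 lower over day 34, with a median of 1.09, beside 20 of 22 and 2.70 over day 21. CXCL8 was at 4.03 and 9.76 at day 34 and differed from OS by 2.88 (edgeR adjusted p = 0.0153) beside 6.05 for day 21. IL32, an inflammatory cytokine gene with a same-strand overlap, differed by 4.48 (edgeR adjusted p = 0.00178) beside 3.79.

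Immediate early, matrix, S phase and mitosis, and shear and YAP genes had fewer calls over day 34 than over day 21. Calls were also fewer over all genes, 16.1% beside 46.8%. Of 20 Wnt and hedgehog genes 6 were higher and 2 lower over day 34. Of 20 unfolded protein and integrated stress response genes 4 were higher and 3 lower. Of 18 immediate early genes 1 was higher and 3 lower. FOS had a log2 fold change of 1.07 over day 34 (edgeR adjusted p = 0.143) and JUN 0.23 (edgeR adjusted p = 0.636). Of 23 matrix genes 1 was higher, COL1A1 (1.97, edgeR adjusted p = 0.0476), and FN1 stood at 1666 and 562 at day 34 (1.48, edgeR adjusted p = 0.152). Of 20 S phase and mitosis genes 3 were lower; UBE2C fell by 1.71 (edgeR adjusted p = 0.0182), while MKI67 was at 78.5 and 111 at day 34 (−0.75, edgeR adjusted p = 0.162). Of 17 shear and YAP genes 3 were higher and 1 lower over day 34, with a median of 0.13. EDN1, the vasoconstrictor endothelin 1, was at 53.1 and 67.9 at day 34 beside 77.5 and 44.9 in OS (0.25). KRT5 had the opposite direction, at 244 and 805 at day 34 (−3.10, edgeR adjusted p = 0.0245). Whether the 2 fold changes of a gene differ was not tested.

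Differences within a cell class were examined with classes taken from clustering each format by itself. The joint cluster named mesenchymal-like (cluster 7) held almost no ULA cell. This choice of clusters per format was made after the data were seen. Joint clusters 0 (unnamed) and 1 (cycling-like), nearly all ULA cells, also carried mesenchymal genes. VIM was at 4518 and 3734 CPM, COL3A1 at 1831 and 1371 and EPCAM at 13.6 and 16.1, beside 3608, 5902 and 28.8 in cluster 7. COL1A1 was lower, at 525 and 209 beside 3915. These clusters held 17.05% to 29.8% and 21.4% to 31.5% of each ULA library. Mesenchymal-like cells came from OS clusters 3 and 4 (3226 and 1008 cells in replicates 1 and 2) and ULA cluster 2 (477, 608 and 423 cells). Hepatocyte-like cells came from OS clusters 1 and 9 (1010 and 457 cells) and ULA clusters 3 and 4 (1239, 681 and 1226 cells). Cells of different clusters may differ in type as well as in format. The 12 cycling markers summed to 147 and 190 CPM in OS mesenchymal-like cells and 1036 to 1382 in ULA ones, and to 255 and 66.9 against 1092 to 1342 in hepatocyte-like cells. Median UMIs per hepatocyte-like cell were 7288 and 2509 in OS replicates 1 and 2 and 19676 to 21342 in ULA. Per mesenchymal-like cell they were 3438.5 and 2191 against 10578 to 10648. The part of depth in the class values was not tested. Cells with high doublet scores were kept here.

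In mesenchymal-like cells, 18 of 23 matrix genes and 11 of 14 contractile genes were higher on the shaker. Of 20 unfolded protein and integrated stress response genes 6 were higher and 12 lower. Of 13272 genes 5837 were called (44%), 3162 higher (23.8%) and 2675 lower (20.2%), with 1069 large (8.05%). Among the matrix genes 1 was lower and the median was 1.51, and among the contractile genes 1 was lower and the median was 2.44. Most of the markers that named the class are in these lists, so both counts are not independent of the naming. COL1A1 was at 3927 and 4738 CPM in OS mesenchymal-like cells and 733, 708 and 758 in ULA ones (2.67, edgeR adjusted p = 3.54e-09). ACTG2, an actin of gut smooth muscle, was at 135 and 88.7 against 3.30 to 5.89 (4.70, SE 0.265, edgeR adjusted p = 1.03e-12). COL12A1 was at 316 and 173 against 1.24 to 2.65 (7.17, SE 0.337, edgeR adjusted p = 4.12e-14). OS replicates 1 and 2 were close for COL1A1 here, while their whole-library values differed.

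The lower genes of mesenchymal-like cells held TAC1, at 23.6 and 25.6 in OS and 680, 848 and 796 in ULA (−4.87, SE 0.294, edgeR adjusted p = 3.2e-12). TRIB3, an ATF4 target, was at 3.88 and 4.42 against 72.2 to 116 (−4.53, SE 0.301), and CHAC1 fell by 4.95. CHODL, a membrane lectin, fell by 4.15 and IGDCC3 by 4.34. Sterol synthesis genes were lower in 18 of 21 and higher in 1, with a median of −1.56; FDPS fell by 2.46. Some higher genes of this class are made by epithelium: SERPINA1 was at 258 and 418 in OS mesenchymal-like cells and 8.39 to 9.94 in ULA ones, and TFF3 at 54.5 and 96.9 against 0.956 to 1.03. The 17 hepatocyte markers summed to 554 and 729 in OS mesenchymal-like cells and to 44.7 to 66.4 in ULA ones. Their part in these values was not tested.

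In all cells outside the mesenchymal-like class, 9632 of 19082 genes were called (50.5%), 5047 higher (26.4%) and 4585 lower (24.0%), with 2586 large (13.6%). Secreted protein genes were higher in 13 of 19 and lower in 0, with a median of 1.93. Matrix genes were higher in 8 of 23 and lower in 4, with a median of 0.04 beside 1.07 over whole libraries. The mesenchymal-like class took only 8.08%, 11.4% and 6.7% of cells from ULA replicates 1 to 3, fewer than joint cluster 0 or 1 alone. ULA cells with high VIM and COL3A1 therefore remain in this set, and their part in the matrix median was not tested.

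Hepatocyte-like cells also showed higher secreted protein and matrix transcripts on the shaker. Of 15441 genes 5815 were called (37.7%), 3196 higher (20.7%) and 2619 lower (17.0%), with 1656 large (10.7%). Of 18 secreted protein genes 12 were higher and 2 lower, with a median of 1.48. The secreted protein list holds the markers that named the class, so its count is not independent of the naming. Of 15 enzyme genes 8 were higher and 1 lower, with a median of 1.98. TTR was at 3428 and 4967 in OS hepatocyte-like cells and at 312, 377 and 333 in ULA ones (3.67, edgeR adjusted p = 1.82e-05). AFP was at 8506 and 9101 against 1033 to 1280 (2.93, edgeR adjusted p = 3.57e-05). UGT2B15, a steroid-glucuronidating enzyme, was at 64.9 and 72.6 against 0.869 to 1.97 (5.68, SE 0.324, edgeR adjusted p = 4.96e-06). FABP1 had the reverse order, at 941 and 1589 against 3827 to 4615 (−1.67, edgeR adjusted p = 0.0027).

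Of 23 transcription factors in hepatocyte-like cells 2 were higher and 7 lower. FOXA2 fell by 2.35 (edgeR adjusted p = 0.00022), and ONECUT1 had 0.29 (edgeR adjusted p = 0.616). These values leave out OS cluster 0, led by AMBP and ONECUT1, which held 17.5% and 5.8% of OS cells and stayed unnamed with 2 markers. Joint cluster 8, which also has ONECUT1 and AMBP among its leading genes and was named hepatocyte-like with 3 markers, held FOXA2 at 40.9 CPM. The class values with that cluster included were not tested. Glycolysis and hypoxia genes were lower in 20 of 26 and higher in 0, with a median of −1.70; LDHA was at 230 and 118 in OS and at 1242, 2231 and 1281 in ULA (−3.17, edgeR adjusted p = 0.000367). Inflammatory genes were higher in all 18 tested, with a median of 2.39; CXCL8 rose by 3.81 and CCL20 by 2.97. Matrix genes were higher in 21 of 23 hepatocyte-like tests, and the 15 mesenchymal markers summed to 4680 and 944 in OS hepatocyte-like cells and to 295 to 335 in ULA ones. MGP was at 482 in OS replicate 1 and 18.8 in replicate 2 beside 0.0322 to 1.39 in ULA. The 12 gut epithelial markers summed to 3175 and 6826 in OS hepatocyte-like cells and to 1076 to 1239 in ULA ones. The part of either marker list in the hepatocyte-like values was not tested. Without ULA day 21 replicate 1, 3430 genes were called in this class.

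**Figure D5:**
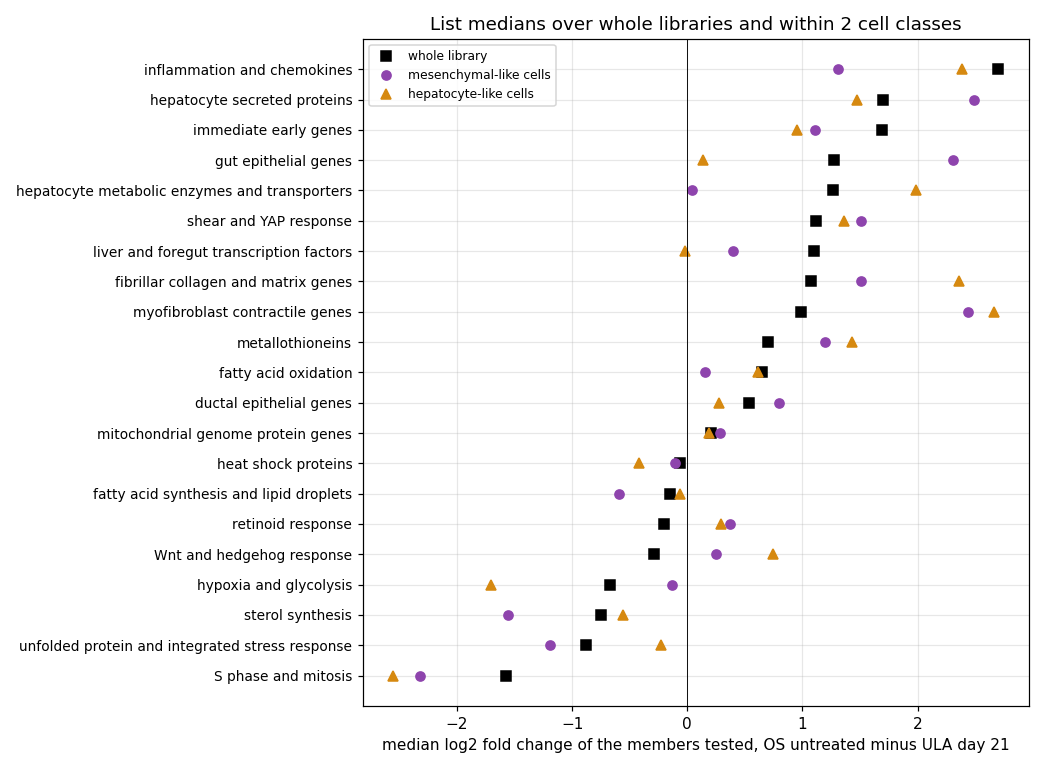
Median log2 fold change of OS untreated over ULA day 21 (x axis) of the tested members of each gene list (rows), over whole libraries (black squares), mesenchymal-like cells (purple circles) and hepatocyte-like cells (orange triangles). Chemokine, matrix and contractile medians lie above 0 in all 3 sets, while those of liver transcription factors and of gut genes lie near 0 in hepatocyte-like cells (−0.02 and 0.14).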

How the data were processed

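The deposited matrices hold raw counts of UMIs for every gene in every barcode, made by the authors with Cell Ranger (3.0.2 per the file headers of the ULA libraries; the headers of the untreated OS libraries name a later release) on GRCh38, per the submitters' processing notes. A cell was kept with 500 genes or more and no more than 20% mitochondrial counts, and genes were joined by Ensembl identifier (34587 shared). Counts were summed per library and levels given as CPM on shared genes. edgeR 4.0.16 (R 4.3.3) was run with TMM scaling, filterByExpr and the quasi-likelihood test, with Benjamini-Hochberg adjustment over all genes tested. The edgeR tests of whole libraries and of cell classes were tried on simulated counts. Cell filtering, clustering and the motif search were not. Clusters came from scanpy 1.11.5 (2000 variable genes, 30 components, 15 neighbours, Leiden resolution 0.5). Scrublet's automatic threshold marked at most 0.034% of cells, so it did not work, and doublets were kept; an alternative removed the highest scores. Classes were to come from joint clusters; those separated the formats, so clusters of each format were used.

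Named genes were the fixed checks (ALB, AFP, HNF4A, EPCAM, COL1A1, MKI67), the 12 highest and 12 lowest large calls without overlap between groups (at least 50 CPM in the higher group and 10 UMIs in the lower), the 2 highest and 2 lowest of each list (at least 5 CPM), and the 6 highest and lowest per class. Other list members and the screened genes were named after their values were seen. The rule for the libraries used titles only, but that rule, the members and the lists were set with earlier results of these data known. Alternatives covered DESeq2 1.42.0, limma 3.58.1, other scaling, filters, cell cuts, blocks and leaving out each library. A few genes are not reported here.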

Additional observations from a re-analysis of the deposited data

Results flagged for a closer look

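Between 2.54% and 4.01% of UMIs in kept day 21 ULA cells lay on genes outside the shared list, with 4.01% in replicate 2, against 0.04% in both OS libraries. These UMIs entered no comparison.

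In 3 genes every OS library moved one way in mesenchymal-like cells and the other way in hepatocyte-like cells, a difference that was not tested. DES, the muscle filament desmin, had a log2 fold change of −1.0 in mesenchymal-like cells (38.9 and 28.6 CPM in OS, 56.9 to 85.7 in ULA) and 2.21 in hepatocyte-like cells (4.24 and 1.42 against 0.386 to 1.03). ICAM1 had −1.83 (7.91 and 9.13 against 29.4 to 35.3) and 1.00 (9.86 and 7.44 against 4.18 to 5.03). LUM had −1.33 (843 and 670 against 2000 to 2123) and 1.85 (208 and 61.6 against 34.6 to 41.7). DES and LUM are among the 15 mesenchymal markers, which summed to 4680 and 944 CPM in OS hepatocyte-like cells and 295 to 335 in ULA ones. The part of that signal in these values was not tested.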

How the results depend on the processing

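The count of calls against day 21 was 5772 (1521 large) without genes that have a same-strand overlap, since fewer genes were tested, and limma with cells weighted equally gave 762 large calls. Against day 34 it was 5123 with no low-count filter and 186 to 3852 (large 186 to 2661) without 1 library. Mesenchymal-like cells had 1727 large calls with no low-count filter, and hepatocyte-like cells 3430 to 6722 calls without 1 library. Replicate numbers did not pair the libraries (same-number correlations of −0.102 and −0.179 for day 21, 0.121 for day 34), and with the replicate block the counts were 6762, 4267 and, in hepatocyte-like cells, 3455.

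With a stricter cell filter the list medians were 2.21 for secreted proteins, 1.37 for transcription factors, 2.04 for gut, 0.79 for ductal, 1.42 for shear and YAP and 3.03 for inflammation. Without 1 library they ranged over 0.74 to 1.75 for enzymes, 0.51 to 1.43 for transcription factors, 0.42 to 1.86 for gut, 0.42 to 0.62 for ductal, 0.33 to 1.67 for contractile, −1.21 to −0.44 for hypoxia, 1.02 to 1.43 for shear and YAP, −1.15 to −0.53 for sterol, −0.31 to 0.10 for fatty acid synthesis, 2.30 to 2.83 for inflammation, −0.63 to −0.15 for retinoid and −0.40 to −0.18 for Wnt and hedgehog genes.

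The share of cells named mesenchymal-like was 28.1 percentage points higher in OS with joint clusters (exact permutation p = 0.2, the smallest possible). With clusters per format it was 17.1 points higher at resolution 0.5, 6.73 at 1.0 and 4.84 with high doublet scores removed. The joint share leaves out ULA clusters 0 and 1, with the mesenchymal gene levels given above. It therefore does not show which format held more mesenchymal cells. The hepatocyte-like difference was 14.2 with joint clusters, 14.5 with high doublet scores removed, 8.6 at resolution 1.0 and −4.34 without called genes. With clusters per format, chosen after seeing the data, it was −8.42 and −10.2 at resolutions 0.5 and 1.0, and 1.32 with high doublet scores removed. The causes of these changes were not tested.

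Of the named genes' values, 1563 kept direction and side of the threshold, 39 lost and 21 gained a call, and 31 changed sign. Ranges without 1 library crossed 0 for AMBP (−0.937 to 0.582), FABP1 (−1.84 to 0.325), SPP1 (−1.444 to 0.111), DES (−0.549 to 0.634), ANGPTL4 (−2.058 to 0.055), ICAM1 (−0.205 to 0.323), CCL2 (−0.596 to 0.713), SLC39A10 (−0.129 to 0.005), MT-ND4 (−1.021 to 0.038) and MT-ND1 (−1.138 to 0.158). The stricter cell filter gave APOA1 0.032, FABP1 0.273, ICAM1 −0.007, CCL2 −0.030 and SLC39A10 0.049, the block AMBP −0.201, DES −0.122, ICAM1 −0.027 and MT-ND1 0.060, and limma DES −0.062, ICAM1 −0.153 and CCL2 −0.227. AMBP was −0.033 with no filter, −0.007 with doublets removed and −0.014 with all 19 libraries.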
